A study of Mus musculus with 4 samples.

Results

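The mitochondrial ribosomal protein genes of mouse embryonic stem (mES) cells were compared between Zfp322a RNAi and control RNAi. They were chosen by name alone, from probe sets whose single symbol in the array annotation starts with Mrpl or Mrps followed by a number. This gave 156 of 45037 probe sets and 76 of 18193 genes, 47 Mrpl and 29 Mrps. The Mrpl30 and Mrpl53 genes are covered only by probe sets that carry a second symbol and were not used here.

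Mitochondria carry their own ribosome, the mitoribosome, which makes the few membrane subunits of oxidative phosphorylation that mitochondrial DNA encodes. Its RNA is made inside the organelle, but all of its proteins come from nuclear genes, named Mrpl for the large and Mrps for the small subunit, and are imported after synthesis in the cytosol. Many of these proteins descend from bacterial ribosomal proteins, whereas others were added later and have no counterpart in the bacterial ribosome. mES cells kept with leukaemia inhibitory factor use both glycolysis and oxidative phosphorylation, and their mitochondria mature as they differentiate.

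E14 is a single mES cell line, cultured here in serum with that factor. The cells were transfected with a plasmid for RNAi against Zfp322a, a zinc finger gene (Zfp322a RNAi, 2 samples), or with the pSuper.puro vector as mock knock-down (control RNAi, 2 samples), and puromycin selection lasted 3 days per the labels in all 4 samples. The labels do not say which shRNA was used, nor whether the 2 samples of a group were separate cultures, so p-values cover only the spread among these 4 samples, which may be technical. Total RNA of each sample went on 1 Affymetrix array, and the number of arrays limits the precision.

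Values are log2 RMA levels, in which each step of 1 is a doubling, and a change is the mean of the Zfp322a RNAi arrays minus that of the control RNAi arrays, with its standard error from limma (n = 2 arrays a group). Each gene is read from its brightest probe set, and a gene is called, or said to rise or fall, where its adjusted p in limma over all genes is under 0.05. The targeted gene came first: Zfp322a read 8.75 and 8.84 in control RNAi against 7.53 and 7.13 in Zfp322a RNAi (change -1.47 ± 0.14, adjusted p = 0.00158 with limma), which left 36.2% of the control level, and its second probe set fell by 1.87 on the log2 scale. The array medians lay between 6.07 and 6.11, and the correlation over all probe sets was 0.998 within each group and 0.989 to 0.990 across groups. ES cell markers were bright, with a mean log2 level over 7 genes of 12.75 and 12.69 in control cells and 12.56 and 12.55 after RNAi. Of the 7, 2 fell (Tdgf1 and Esrrb), and Pou5f1, Nanog, Sox2, Zfp42 and Dppa5a did not pass the test. Fibroblast or feeder markers averaged 5.00 to 5.23 on all 4 arrays, under the array medians, and 1 of 7 fell. Endoderm markers averaged 5.81 and 5.83 in control cells and 6.24 and 6.29 after RNAi, and 4 of 6 rose. Over all genes 14.4% fell and 14% rose. The part of these markers in the results below was not tested, and in bulk RNA fewer cells of a type and less RNA per cell cannot be told apart.

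Most mitoribosomal genes that changed were lower after Zfp322a depletion, by small amounts. Of 76 genes, 22 fell, 4 rose and 50 did not pass the test, where 14.4% of all genes fell and 14% rose (28.4% called in all). The falls were 1.2-fold to 1.70-fold (control over RNAi), with Mrpl41, Mrps12, Mrpl55 and Mrpl24 as the largest. The rises were those of Mrpl32, Mrpl9, Mrps28 and Mrps14, between 1.19-fold and 1.61-fold. Leaving out any 1 array leaves 1 residual degree of freedom, with the lone array of its group assumed to vary like the other group, and limma then called 0 of the 18193 genes, Zfp322a included. That outcome says nothing of stability. The changes of the 26 called members were then 0.75 to 1.25 times those with all arrays. A call favours genes with little spread within groups, so this range says nothing of stability either. The median change was -0.11 over the 76 genes, against -0.04 over all genes. All 76 genes lay above a log2 level of 6.09, the median level of all probe sets. With genes below it left out of the fit, 29 of the 76 fell and 5 rose. Of the 11433 genes then left, 3009 fell and 2788 rose, larger shares than those of all genes. In that fit the share of the 76 genes that was called lay below the share of the 11433 genes. The share that fell lay above it. Both Zfp322a RNAi arrays lay below both control arrays for 42 of the 76 genes (35.8% of all genes) and above them for 15 (26.8% of all genes). Each of the 26 called members was among these, so that such a separation adds nothing to a call. The study's methods select genes by fold difference and not by a test. With a 1.5-fold difference of group means and no test, only Mrpl41 and Mrps12 were down-regulated and only Mrpl32 was up-regulated, 3 of 76 genes where 8.25% of all genes did so.

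**Figure D1:**
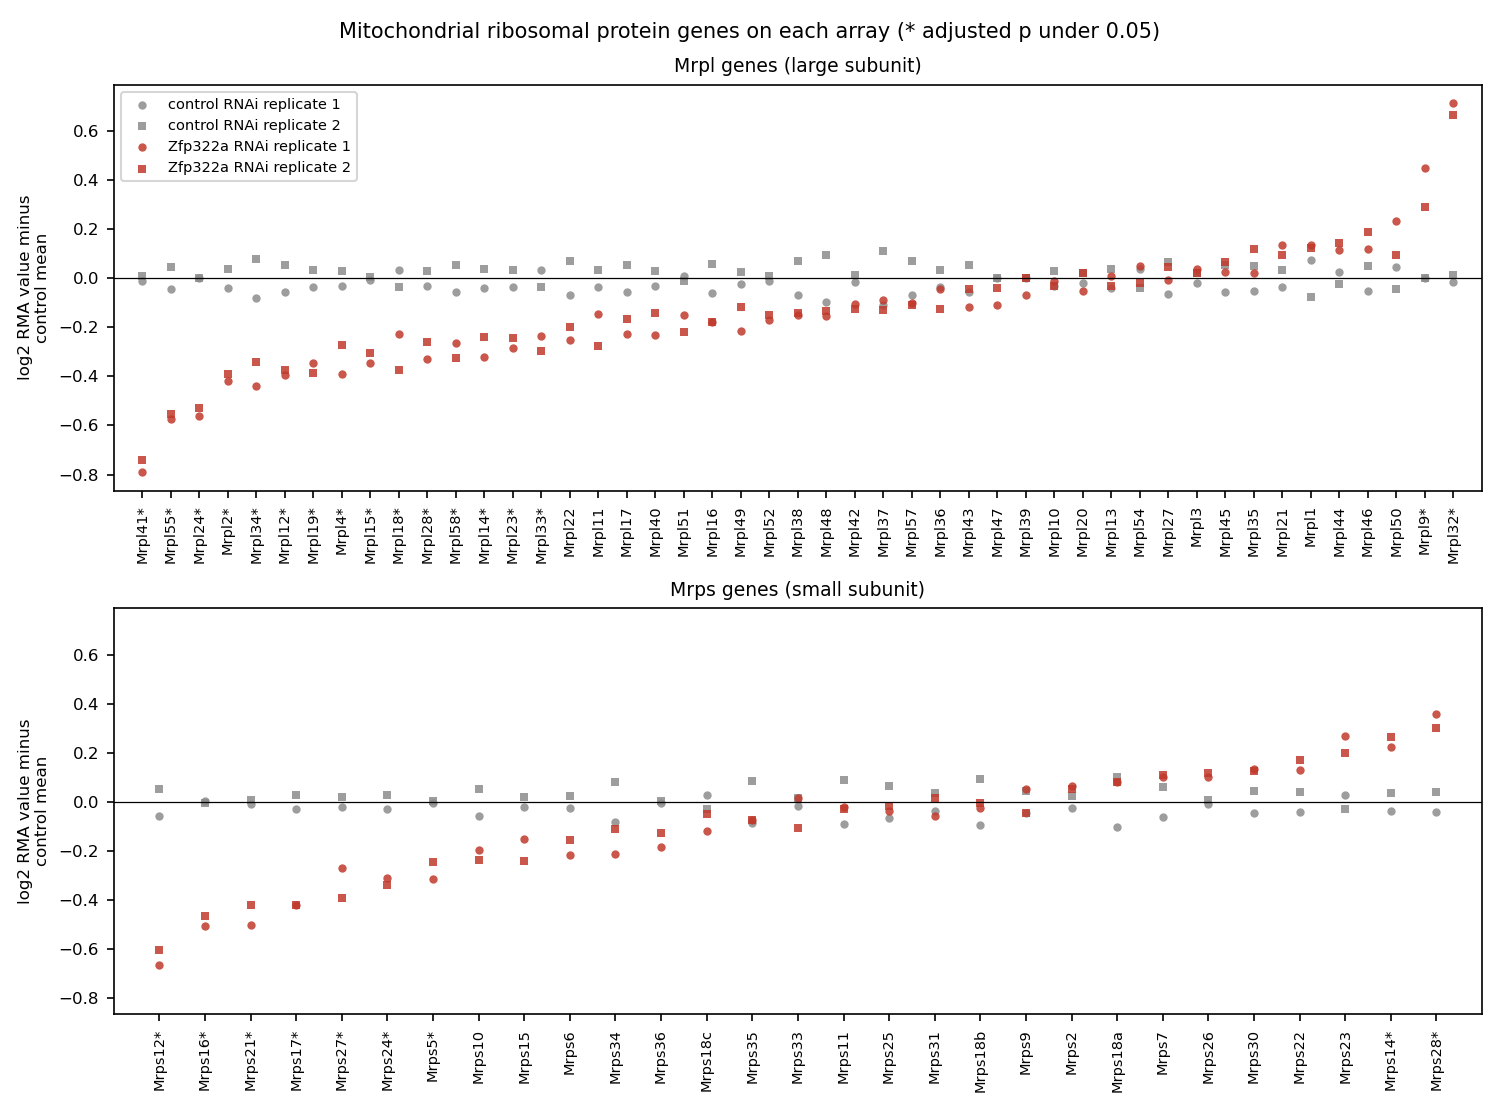
Log2 RMA level per array (y axis), set to 0 at the mean level in control RNAi, for the 47 Mrpl genes (top) and 29 Mrps genes (bottom), ordered along the x axis by their change. Grey symbols are control RNAi arrays and red symbols Zfp322a RNAi arrays. Asterisks mark the 26 genes past an adjusted p of 0.05, 22 of them lower, and the changes run from -0.77 (Mrpl41) to 0.69 (Mrpl32).

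The promoters of the genes with the largest changes are shown because these genes went opposite ways while their proteins join the same particle. For Mrpl41 (lower), Mrpl32 (higher) and Mrps12 (lower) the window runs from 250 bases before to 50 bases after the transcription start, with sequence and coordinates from RefSeq on GRCm38.p6. Capitals mark the NRF1 motif core GCGCATGC, the ETS motif CCGGAAG and the YY1 motif AAGATGGC, on either strand. NRF1, the ETS factor GABP and YY1 are regulators known for nuclear genes of mitochondrial proteins. A promoter of Mrps28, the small subunit gene with the largest rise, is not shown.
Mrpl41 chr2:24975049-24975348 (strand -): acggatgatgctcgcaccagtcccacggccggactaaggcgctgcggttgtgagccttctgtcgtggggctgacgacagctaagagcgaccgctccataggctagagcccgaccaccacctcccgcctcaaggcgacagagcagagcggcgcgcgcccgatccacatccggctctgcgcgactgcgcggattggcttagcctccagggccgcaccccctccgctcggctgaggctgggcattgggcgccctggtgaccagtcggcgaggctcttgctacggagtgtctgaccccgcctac
Mrpl32 chr13:14612988-14613287 (strand -): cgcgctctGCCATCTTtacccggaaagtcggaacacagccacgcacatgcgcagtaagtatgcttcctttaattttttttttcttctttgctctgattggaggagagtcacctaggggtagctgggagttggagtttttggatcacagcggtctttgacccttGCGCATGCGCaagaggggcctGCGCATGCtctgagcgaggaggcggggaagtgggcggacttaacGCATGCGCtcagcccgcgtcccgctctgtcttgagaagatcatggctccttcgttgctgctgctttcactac
Mrps12 chr7:28741772-28742071 (strand -): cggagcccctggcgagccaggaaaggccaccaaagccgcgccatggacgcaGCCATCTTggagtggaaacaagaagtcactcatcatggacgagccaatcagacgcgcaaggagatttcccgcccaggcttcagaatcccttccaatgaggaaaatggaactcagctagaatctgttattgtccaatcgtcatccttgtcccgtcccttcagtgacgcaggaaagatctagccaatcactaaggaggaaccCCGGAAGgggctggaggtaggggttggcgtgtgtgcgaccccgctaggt

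The Mrpl32 window held the YY1 motif and more than 1 NRF1 core, including a run that reads the core on both strands with overlap. That of Mrps12 held the ETS and the YY1 motif, and that of Mrpl41 held none of them. Over the family, 67 of 76 genes matched the RefSeq table, with 73 promoters. The ETS motif lay in 34.2% of member promoters (8.86% of all 32851 promoters, and 13% of the promoters of genes on the arrays). The YY1 motif lay in 16.4% (2.75% of all, 3.38% for genes on the arrays) and the NRF1 core in 11.0% (2.71% and 4.04%). The E-box CACGTG, which the Myc proteins bind, lay in 9.59% (7.15% and 8.72%). Since 3 of these 7 E-box windows are overlapping ones of Mrpl2, 5 of 67 genes (7.46%) carried it. The ETS motif was in 8 of 25 promoters of called members and in 17 of 48 of the others, the YY1 motif in 4 of 25 and 8 of 48, and the NRF1 core in 3 of 25 (Mrpl9, Mrpl32 and Mrpl33) and 5 of 48. A letter match is a description and says nothing of binding.

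In the large subunit, 15 of 47 Mrpl genes fell, 2 rose and 30 did not pass the test, and the median change was -0.15. Mrpl41, a protein without bacterial counterpart, showed the largest change of all 76 genes. It read 10.29 and 10.31 in control RNAi against 9.51 and 9.56 in Zfp322a RNAi (change -0.77 ± 0.07, adjusted p = 0.00148 with limma). A nearly as bright second probe set also fell, by 0.60 on the log2 scale, and the dimmest one, at 5.05 to 5.35, was below the array medians and did not pass.

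Proteins near the exit of the tunnel through which new chains leave the ribosome include those of Mrpl24 and Mrpl23. Mrpl24 read 11.70 and 11.70 in control RNAi against 11.14 and 11.17 in Zfp322a RNAi (change -0.55 ± 0.07, adjusted p = 0.00314 with limma). Its pairs of arrays were tight, with no overlap between the groups, as in every called member. Mrpl23 fell as well (-0.27 ± 0.07, adjusted p = 0.0371 with limma). The other exit proteins in the list, Mrpl17, Mrpl22, Mrpl45 and Mrpl47, did not pass, with changes between -0.23 and 0.05. The 2 calls among 6 exit genes (33.3%) were near the 28.4% of all genes.

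Mrpl2 and Mrpl4 encode homologues of proteins that line the core of the bacterial large subunit. Mrpl2 read 11.40 and 11.48 in control RNAi against 11.02 and 11.05 in Zfp322a RNAi (change -0.41 ± 0.07, adjusted p = 0.00944 with limma). The level of Mrpl4 was 10.62 and 10.68 in control RNAi against 10.26 and 10.38 in Zfp322a RNAi (change -0.33 ± 0.08, adjusted p = 0.0246 with limma). For both genes all RNAi values lay below all control values, as in every member that fell and in 35.8% of all genes.

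Mrpl12 encodes the homologue of the bacterial L7/L12 stalk protein, which recruits translation factors. It read 10.78 and 10.89 in control RNAi against 10.44 and 10.46 in Zfp322a RNAi (change -0.39 ± 0.07, adjusted p = 0.0129 with limma). Of the other stalk genes measured, Mrpl10 (-0.02 ± 0.07), Mrpl11 (-0.21 ± 0.08) and Mrpl54 (0.02 ± 0.07) did not pass (limma adjusted p between 0.103 and 0.900). In the central protuberance, where the large subunit meets the tRNAs and the small subunit, Mrpl18 fell (-0.30 ± 0.08, adjusted p = 0.0408 with limma), and Mrpl27, Mrpl38, Mrpl40, Mrpl46 and Mrpl48 did not pass. A second Mrpl48 probe set of like brightness, of a kind open to cross-hybridization, did fall in a fit over all probe sets (-0.375). By brightest probe sets, neither 1 call among 4 stalk genes nor 1 among 6 genes of the protuberance stands above the 28.4% of all genes.

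Several further Mrpl genes with bacterial homologues were lower. Mrpl55 read 9.08 and 9.17 in control RNAi against 8.55 and 8.57 in Zfp322a RNAi (change -0.57 ± 0.07, adjusted p = 0.00345 with limma). Mrpl19 gave 9.63 and 9.70 in control RNAi against 9.32 and 9.28 in Zfp322a RNAi (change -0.37 ± 0.07, adjusted p = 0.0130 with limma). Mrpl15, which is covered by 8 probe sets, had values of 12.16 and 12.17 in control RNAi against 11.82 and 11.86 in Zfp322a RNAi (change -0.33 ± 0.07, adjusted p = 0.0167 with limma). All 8 Mrpl15 probe sets had negative changes, from -0.41 to -0.19, and 4 of them passed over all probe sets (20.1% of all probe sets passed). The brightest one is of a kind open to cross-hybridization, and without such probe sets Mrpl15 was still called.

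Mrpl34 was measured at 10.24 and 10.40 in control RNAi against 9.88 and 9.98 in Zfp322a RNAi (change -0.39 ± 0.09, adjusted p = 0.0207 with limma). The control arrays had an SD of 0.11, and a dim second probe set had a change of -0.02. Mrpl28 read 11.07 and 11.13 in control RNAi against 10.77 and 10.84 in Zfp322a RNAi (change -0.30 ± 0.07, adjusted p = 0.0278 with limma), and another probe set of like brightness fell too (-0.37). The remaining falls were those of Mrpl58, which encodes a peptidyl-tRNA hydrolase that frees stalled ribosomes (-0.30 ± 0.08), Mrpl14 (-0.28 ± 0.07) and Mrpl33 (-0.27 ± 0.07), with adjusted p between 0.0332 and 0.0391 with limma. After centring of the arrays on their medians the calls of Mrpl14, Mrpl18, Mrpl23, Mrpl33 and Mrpl58 were lost. With the probe sets of a gene averaged those of Mrpl19 (-0.20), Mrpl34 (-0.21), Mrpl33 and Mrpl58 were lost.

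Against this direction, Mrpl32 had the second largest change of the family. Its protein is cut by the m-AAA protease of the inner membrane before it joins the ribosome. Mrpl32 read 10.39 and 10.42 in control RNAi against 11.12 and 11.07 in Zfp322a RNAi (change 0.69 ± 0.07, adjusted p = 0.00180 with limma), a 1.61-fold rise, on its single probe set. Mrpl9 gave 9.45 and 9.45 in control RNAi against 9.90 and 9.74 in Zfp322a RNAi (change 0.37 ± 0.08, adjusted p = 0.0201 with limma). The Zfp322a RNAi arrays of Mrpl9 had an SD of 0.11, and both lay above the control arrays, as they did for its 2 further probe sets (0.40, called, and 0.39, not passed). For Mrpl44, which was not called on its brightest probe set (0.13 ± 0.07), 2 dimmer probe sets rose (0.42 and 0.54). For Mrpl3, also not called, a dim probe set rose (0.415) and 3 others did not pass.

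In the small subunit, 7 of 29 Mrps genes fell, 2 rose and 20 did not pass the test, with a median change of -0.05. Mrps12, whose protein is the homologue of S12 at the decoding centre, fell most. It read 10.86 and 10.97 in control RNAi against 10.25 and 10.31 in Zfp322a RNAi (change -0.64 ± 0.08, adjusted p = 0.00289 with limma). Its single probe set is of the kind open to cross-hybridization. Mrps12 shares a head-to-head promoter region with Sars2, the mitochondrial seryl-tRNA synthetase gene, whose start lies 147 bases away and which did not pass the test (0.11 ± 0.07).

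Other small subunit falls were close in size. Mrps16 read 11.38 and 11.37 in control RNAi against 10.87 and 10.91 in Zfp322a RNAi (change -0.49 ± 0.07, adjusted p = 0.00454 with limma). The values of Mrps21 were 9.88 and 9.90 in control RNAi against 9.39 and 9.47 in Zfp322a RNAi (change -0.46 ± 0.07, adjusted p = 0.00615 with limma). Mrps17 gave 10.45 and 10.51 in control RNAi against 10.06 and 10.06 in Zfp322a RNAi (change -0.42 ± 0.07, adjusted p = 0.00755 with limma). In all 3 genes, arrays of a group lay closer to each other than to any array of the other group, which a call favours.

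Mrps24 and Mrps5 encode homologues of S3 and S5, which sit where mRNA enters the small subunit. Mrps24 read 11.10 and 11.16 in control RNAi against 10.82 and 10.79 in Zfp322a RNAi (change -0.33 ± 0.07, adjusted p = 0.0182 with limma), and its second probe set, like the first of a kind open to cross-hybridization, also fell (-0.41). Mrps5 had 9.99 and 10 in control RNAi against 9.68 and 9.75 in Zfp322a RNAi (change -0.28 ± 0.07, adjusted p = 0.0298 with limma). In the fit over all probe sets, the second of its 5 probe sets fell (-0.32). There the brightest one did not pass (adjusted p = 0.0515 with limma), nor did the 3 dimmest, with changes between -0.09 and 0.03. Mrps27, which encodes a protein with pentatricopeptide repeats and no bacterial counterpart, fell from a lower level, with 8.13 and 8.17 in control RNAi against 7.88 and 7.76 in Zfp322a RNAi (change -0.33 ± 0.08, adjusted p = 0.0235 with limma).

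The small subunit also had genes that went up. Mrps28 read 10.39 and 10.47 in control RNAi against 10.79 and 10.73 in Zfp322a RNAi (change 0.33 ± 0.07, adjusted p = 0.0202 with limma). Mrps14 gave 11.08 and 11.15 in control RNAi against 11.34 and 11.38 in Zfp322a RNAi (change 0.25 ± 0.07, adjusted p = 0.0470 with limma), and its 2 dimmer probe sets went opposite ways without passing (0.32 and -0.17). With probe sets averaged, the calls of Mrps5 (-0.13) and Mrps14 (0.13) were lost. Mrps23 just missed the threshold, with 9.48 and 9.42 in control RNAi against 9.72 and 9.65 in Zfp322a RNAi (change 0.24 ± 0.07, adjusted p = 0.0563 with limma). For these 3 genes both RNAi arrays lay above both control arrays, as in 26.8% of all genes. Among the names, 3 do not follow the particle, since the proteins of Mrps18a and Mrps30 sit in the large subunit, and that of Mrps36 belongs to the oxoglutarate dehydrogenase complex. Mrps18a read 9.99 and 10.19 in control RNAi against 10.17 and 10.17 in Zfp322a RNAi (change 0.08 ± 0.09, adjusted p = 0.553 with limma). For Mrps30 the levels were 10.52 and 10.61 in control RNAi against 10.70 and 10.69 in Zfp322a RNAi (change 0.13 ± 0.07, adjusted p = 0.235 with limma). Mrps36 had 9.70 and 9.71 in control RNAi against 9.52 and 9.58 in Zfp322a RNAi (change -0.16 ± 0.07, adjusted p = 0.152 with limma). None of these 3 passed the test.

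Large and small subunit were then set side by side. Calls made up 36.2% of Mrpl genes (31.9% lower, 4.26% higher) and 31.0% of Mrps genes (24.1% lower, 6.90% higher), against 28.4% of all genes (14.4% lower, 14% higher). Changes ran from -0.77 to 0.69 among Mrpl and from -0.64 to 0.33 among Mrps genes. The mean log2 level over Mrpl genes minus that over Mrps genes was 0.152 and 0.135 in control cells and 0.101 and 0.104 after Zfp322a RNAi, a difference of -0.04. With Mrps18a and Mrps30 counted in the large subunit and Mrps36 left out, it was 0.116 and 0.105 against 0.0898 and 0.0941, a difference of -0.02. The groups were apart in both cases, but no test was made, since members are not replicates and an exact permutation test of 2 against 2 arrays cannot go below 0.333. The difference of the medians, -0.10, was -0.0275 when a gene's probe sets were averaged.

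Control RNAi replicate 2 read higher than replicate 1 for 62 of the 76 genes (81.6%, against 55.1% of all genes). Relative to the mean of the control arrays, the Mrpl genes averaged -0.03 and 0.03 in control cells and -0.14 and -0.13 after Zfp322a RNAi. The Mrps genes averaged -0.04 and 0.04 against -0.09 and -0.09. Without control RNAi replicate 2 the median change was -0.10 for Mrpl and 0.01 for Mrps genes, so that the direction of the Mrps median rests on that array.

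**Figure D2:**
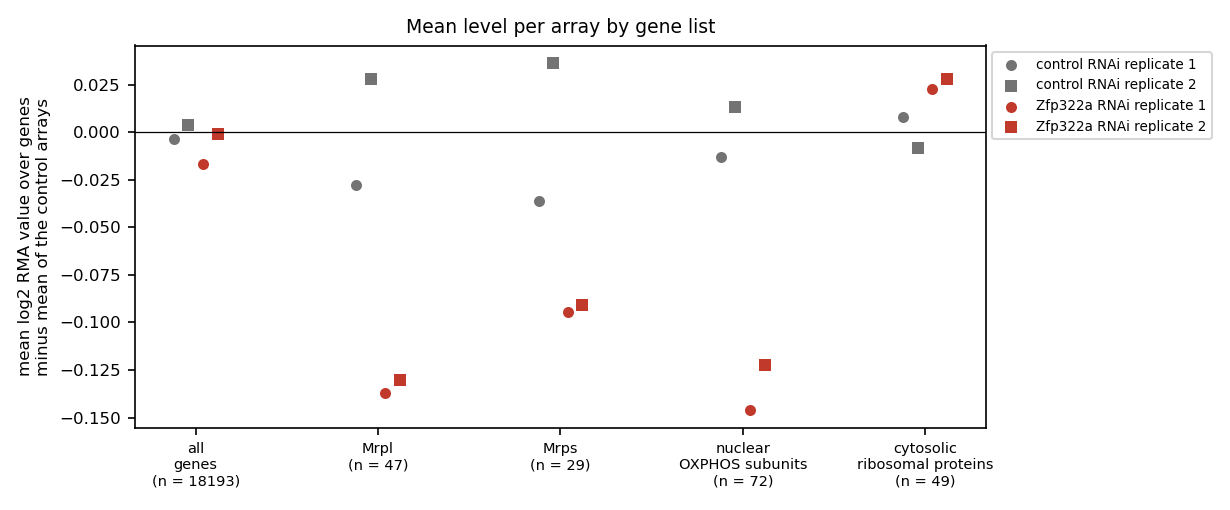
Mean log2 RMA value over the genes of a list on each array, relative to its mean in control RNAi (y axis), for all 18193 genes, 47 Mrpl genes, 29 Mrps genes, 72 OXPHOS subunits and 49 cytosolic ribosomal proteins (x axis). Grey symbols are control RNAi and red symbols Zfp322a RNAi arrays. Mrpl genes lie at -0.14 and -0.13 and Mrps genes at -0.09 and -0.09 after RNAi, and cytosolic ribosomal proteins, 37 of 49 with levels over 13 and near the top of the scale, at 0.02 and 0.03.

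In a split that was not planned, the proteins were sorted by hand by whether they have a homologue in the bacterial ribosome. The calls were spread unevenly over these groups. Of 45 genes whose proteins have such a homologue, 19 fell, 4 rose and 22 did not pass (51.1% called). Among 28 genes for proteins without one, 3 fell (Mrpl41, Mrpl58 and Mrps27), 0 rose and 25 did not pass (10.7% called). Over all genes 28.4% were called, 14.4% lower and 14% higher. The split was of like size in both subunits, with 15 of 29 against 2 of 18 Mrpl genes and 8 of 16 against 1 of 10 Mrps genes called. Median changes were -0.20 with and -0.08 without a homologue, and the median standard errors were 0.07 in both. Per array, genes with a homologue averaged -0.16 and -0.15 and those without -0.08 and -0.07 after RNAi, relative to the control mean. The difference between these groups was not tested. With a variance trend in the limma fit, 30 of 45 and 9 of 28 were called, where 6268 of 18193 genes were called. The 9 of 28 was then near the share of all genes. With the replicate number as a block, 9 of 45 and 1 of 28 were called, where 2656 of 18193 genes were called.

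**Figure D3:**
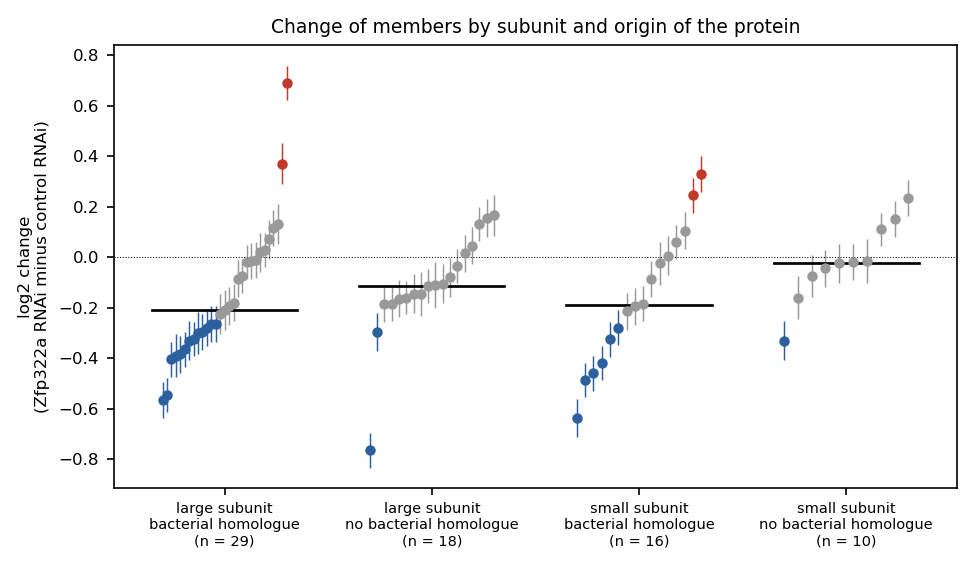
Log2 change (Zfp322a RNAi minus control RNAi, y axis) of 73 genes in 4 groups by subunit and homologue (x axis). The homologue is one in the bacterial ribosome. Points are genes with the limma standard error, red for higher, blue for lower and grey for not passed, and black lines are medians: -0.21, -0.11, -0.19 and -0.02 from left to right.

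Genes that serve the mitoribosome were looked at next, from lists chosen by function. Of 4 ribosomal proteins with other symbols, Dap3, a GTP-binding small subunit protein, fell (-0.56 ± 0.08, adjusted p = 0.00554 with limma), and Ptcd3, Chchd1 and Gadd45gip1 did not pass. Translation factors had 2 falls and 0 rises among 13 genes, those of Tufm, the mitochondrial elongation factor Tu (-0.41 ± 0.07, adjusted p = 0.00964 with limma), and Gfm2, a ribosome recycling factor (-0.45 ± 0.09, adjusted p = 0.0139 with limma). The share that fell (15.4%) was near the 14.4% of all genes, and the median change was -0.08.

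Assembly and rRNA modification genes went both ways, with 5 rises (20% of 25 genes, against 14% of all genes), 7 falls (28%, against 14.4%) and a median change of -0.06. Mterf3, needed for large subunit assembly, rose (0.67 ± 0.08), as did the GTPase gene Gtpbp10 (0.56 ± 0.09) and Rpusd4, a pseudouridine synthase of the large rRNA (0.53 ± 0.07). Tfb1m, the dimethyltransferase of the small rRNA, fell (-0.49 ± 0.07). These 4 had adjusted p between 0.00312 and 0.00835 with limma. Mitochondrial aminoacyl-tRNA synthetases and related genes had 3 rises and 3 falls among 19 (15.8% each, near the shares of all genes), led by the fall of Vars2 (-0.41 ± 0.07) and the rise of Nars2 (0.34 ± 0.09). Mitochondrial transcription and DNA maintenance had 2 rises and 1 fall among 10 (30% called, near the 28.4% of all genes), with Tfb2m, a transcription initiation factor, higher (0.53 ± 0.07) and Polg, the DNA polymerase, lower (-0.56 ± 0.07).

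Among regulators of nuclear genes for mitochondrial proteins 6 of 11 genes rose (54.5%, where 14% of all genes rose), 1 fell (9.09%, where 14.4% of all genes fell) and 4 did not pass. Myc had the largest rise (1.12 ± 0.09, adjusted p = 0.00123 with limma), followed by Mycn (0.62 ± 0.07). Gabpa, the DNA-binding subunit of GABP, read 11.17 and 11.03 in control RNAi against 11.72 and 11.62 in Zfp322a RNAi (change 0.57 ± 0.08, adjusted p = 0.00528 with limma). The coactivator gene Ppargc1b fell (-0.58 ± 0.09, adjusted p = 0.00631 with limma), and Nrf1 did not pass (-0.04 ± 0.07). A part of these genes in the changes of the ribosomal genes was not tested.

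Nuclear OXPHOS subunits, many of which join products of the mitoribosome in 1 complex, were lower in 16 and higher in 0 of 72 genes, with a median change of -0.10. The largest falls were those of Atp5k (-0.67 ± 0.07) and Ndufv3 (-0.64 ± 0.07). Cytosolic ribosomal proteins had 3 rises and 1 fall among 49 genes, with a median of 0.01. Of these, Rps25 rose most (0.45 ± 0.08). Of the 49 genes 37 had a mean level over 13, where the highest value of the table was 14.61, and 0 of these 37 were called. The 4 calls were among the 12 dimmer genes, at levels of 9.43 to 11.3, and the highest level of a mitoribosomal gene was 12.4. In all, 34.2% of mitoribosomal, 22.2% of OXPHOS and 8.16% of cytosolic ribosomal genes were called, against 28.4% of all genes. The differences between the lists were not tested. With dim genes left out of the fit, 29 of the 76 mitoribosomal genes fell and 5 rose. That share of calls lay below the 5797 of 11433 genes then called.

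**Figure D4:**
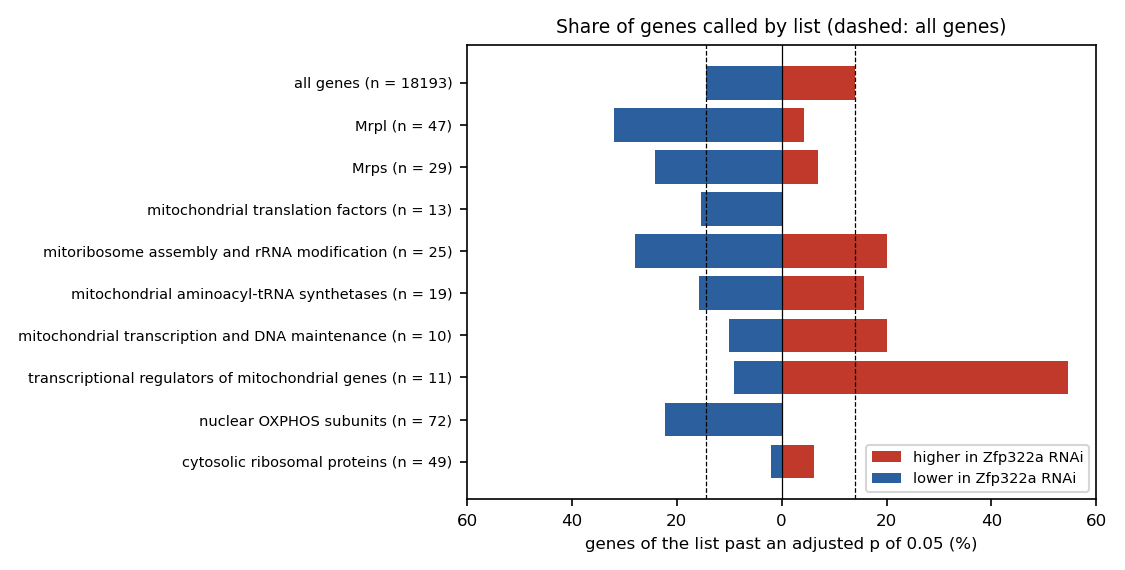
Percentage of the genes of each list (y axis, n in brackets) past an adjusted p of 0.05 with limma, with genes higher in Zfp322a RNAi to the right in red and lower ones to the left in blue (x axis). Dashed lines mark all genes, dim ones included, 14.4% lower and 14% higher. Mrpl genes reach 31.9% lower and 4.26% higher, Mrps genes 24.1% and 6.90%.

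Many mitoribosomal genes lie head to head with another gene. By RefSeq annotation, 23 members had a gene on the opposite strand whose start lay within 500 bases, and each of these genes was measured. Among 8 called members the neighbour was called in the same direction for 1, Mrpl14 with Tmem63b (-0.29 ± 0.07), and did not pass for 7, where 28.4% of all genes were called. Mrpl32 faces the proteasome gene Psma2 (0.06 ± 0.07), Mrpl2 faces Klc4 (-0.02 ± 0.08) and Mrpl18 faces the chaperonin gene Tcp1 (-0.15 ± 0.07). The 15 members that were not called had 3 called neighbours, a share below that of all genes, among them Ska3 beside Mrpl57 (0.90 ± 0.11). Mrpl46 and Mrps11, of different subunits, face each other, and neither passed (0.16 ± 0.07 and -0.03 ± 0.08).

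The 50 members that did not pass had changes between -0.23 and 0.24. Their 95% confidence intervals reached from -0.42 to 0.41 at most, and changes inside a gene's own interval remain compatible with its values. The intervals are not adjusted for the number of genes. Some of them leave out 0, such as that of Mrpl22 (-0.42 to -0.03). Of 42 members with several probe sets, 0 had probe sets that passed in opposite directions, and for 12 called members the next brightest probe set passed in the same direction in 7 and did not pass in 5.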

How the data were processed

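The authors processed the scanned Affymetrix arrays (1 colour, 1 array per sample) with RMA (background subtraction, quantile normalization, probe set summary) and deposited log2 values with 2 decimals for 45037 probe sets. The table does not state its scale, which was read from the range (2.62 to 14.6). Since RMA aligns quantiles, a shift of all genes together would not be seen. The study's methods give 3 days of puromycin for shRNA plasmids, as the labels do, but a longer selection where they describe the arrays.

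Groups came from sample titles. Of the probe sets, 34945 had 1 symbol (symbols updated by Entrez ID through RefSeq, GRCm38.p6). Each of 18193 genes was read from its probe set with the highest mean. limma 3.58.1 (R 4.3.3; group as the single term, two-sided, Benjamini-Hochberg over all genes) was tested on simulated data first. Differences between lists got no test. Members and lists were chosen with earlier results of these data known. All called members are named, with array values for the 12 Mrpl and 10 Mrps genes of lowest adjusted p and Mrps18a, Mrps30 and Mrps36 added; other lists name at most 4 genes that passed, and further names were chosen after their values were seen. Alternatives were array scaling, dim genes, probe set choice, variance trend, replicate block, subunit assignment and leaving out each array.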

Additional observations from a re-analysis of the deposited data

How the results depend on the processing

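All 26 called members kept their direction wherever they were tested, in 12 other settings, but most of these settings could not have reversed it. Dim genes left out, a variance trend, a replicate block and all probe sets fitted leave each change as it was. Leaving out 1 array could not turn a sign, since both RNAi arrays of each called member lay on 1 side of both control arrays. Only array centring, a repeated quantile normalization, averaged probe sets and cross-hybridizing probe sets left out could have done so. Calls were fewer with array centring (21 of the 26 kept), with the mean of all probe sets (20 kept) and with all probe sets fitted (19 kept), and the calls of Mrpl58 and Mrpl33 ended in all 3. Without any 1 array, the fit has 1 residual degree of freedom, and its counts of calls cannot show whether the calls are stable. The median change then lay between -0.19 and -0.10 for Mrpl, between -0.11 and 0.01 for Mrps (0.01 without control replicate 2), and their difference between -0.11 and -0.08. With a variance trend 23 Mrpl genes fell and 4 Mrps genes rose, where 3187 of 18193 genes fell and 3081 rose. With the mean of all probe sets 1 Mrps gene rose, and the difference of the medians of Mrpl and Mrps was -0.0275. All probe sets fitted gave 1 Mrps gene that rose and, over all probe sets, 4774 higher and 4266 lower. By the 1.5-fold rule 1 Mrpl gene was higher and 1 lower, and 0 Mrps genes were higher and 1 lower. With the replicate number as a block, 1493 genes rose and 1163 fell, with 1 Mrpl gene higher and 5 lower and 0 Mrps genes higher and 4 lower, and 10 of the 26 member calls held. The numbers are not stated to pair samples, and deviations of same-numbered arrays correlated at 0.04. Probe sets open to cross-hybridization were the only ones for Mrps12 and Mrps24 among called members, so that these had no value without them. The cause of each of these moves was not tested.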
